A study of Rattus norvegicus with 18 samples.

Results

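The 36 genes described here encode the enzymes of glycolysis, the transporters and kinases that set its flux, and proteins that cells make more of when oxygen is short. They were taken by name, and 35 of them were among the 17455 genes of the deposited expression tables: 16 glycolytic enzymes, 5 flux regulators and transporters, and 14 other hypoxia response genes. Of the 35, 34 were listed under the same symbol and Car9 as Ca9, a synonym in RefSeq. Egln1 was not analysed here.

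The cells were H9c2, a wild-type myoblast line from rat myocardium, so all values describe 1 cultured line. Cells treated with bufalin, cells treated with periplocin and control cells each gave 3 libraries from an m6A antibody pull-down (IP) and 3 input libraries, 18 in all. Bufalin and periplocin are cardiotonic steroids, which block the sodium and potassium pump. The question of the series was whether heart cell toxicity of both steroids involves N6-methyladenosine (m6A), a methylated base of mRNA. Dose, time and oxygen level are not in the labels, nor whether the replicates were separate cultures, so the p-values measure the spread between these samples, which may be technical.

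Glycolysis splits glucose into pyruvate, and lactate dehydrogenase turns pyruvate into lactate when it is not burned in mitochondria. In low oxygen the factor HIF1, made of HIF1A and ARNT, escapes the prolyl hydroxylases that mark it for destruction and switches on most glycolytic genes together with genes for blood vessel growth, mitophagy and collagen hydroxylation. HIF1 binds short hypoxia response elements whose core is ACGTG or, in fewer cases, GCGTG. Heart muscle turns from fatty acids towards glucose under strain and low oxygen, and several enzymes come as isozymes, of which some respond to HIF more than others.

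The ACGTG core was found in the promoters of 21 of these genes. RefSeq windows of the GRCr8 assembly, from 250 bases before to 50 bases after a start site, were found for 31 of the 35 genes, as 37 windows, since some genes have several starts. Ero1a, Bnip3l, Pgk1 and Ndrg1 were not in the promoter table used. ACGTG was searched on both strands, and it lay in 21 of the 37 windows (56.8%), against 19.3% of all 33469 promoter windows and 25.8% of the 8925 windows of genes with a mean count of at least 10 in the RNA tables. By group it lay in 52.6% of enzyme windows, 60% of those of flux regulators and transporters and 61.5% of those of other hypoxia response genes. GCGTG was in 43.2% of the windows, against 29.7% of all windows and 49.7% of the 8925. CACGTG, the E-box that Myc family proteins also bind, holds ACGTG on both strands, and it was in 13.5% of the windows, against 6.42% and 9.37%. These matches are letters in a window and not measured binding.

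The windows of 10 genes held no ACGTG: Hk2, Pfkl, Pfkp, Tpi1, Pkm, Slc16a3, Pfkfb4, Vegfa, Egln3 and Kdm3a. The 250 bases before the start are printed below for 5 genes with a match, picked after the matches were seen because they span all 3 groups: Slc2a1, Ldha, Bnip3, Ankrd37 and P4ha2. Capitals mark ACGTG, or CACGT where it is on the opposite strand. They lie at chr5:138002272-138002521 for Slc2a1 (plus strand), chr1:106507842-106508091 for Ldha (plus strand), chr1:203154963-203155212 for Bnip3 (minus strand), chr16:53001257-53001506 for Ankrd37 (plus strand) and chr10:38743644-38743893 for P4ha2 (plus strand), all in GRCr8.
Slc2a1: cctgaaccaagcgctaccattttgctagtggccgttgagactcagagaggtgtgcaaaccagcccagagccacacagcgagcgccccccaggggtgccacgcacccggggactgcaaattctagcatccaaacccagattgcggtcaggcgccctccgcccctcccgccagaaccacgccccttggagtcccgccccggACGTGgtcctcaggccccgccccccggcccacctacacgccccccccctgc
Ldha: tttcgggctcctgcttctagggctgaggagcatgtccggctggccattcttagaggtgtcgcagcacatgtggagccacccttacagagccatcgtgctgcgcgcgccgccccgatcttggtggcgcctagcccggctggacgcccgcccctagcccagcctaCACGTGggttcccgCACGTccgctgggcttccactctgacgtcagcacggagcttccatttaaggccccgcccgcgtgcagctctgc
Bnip3: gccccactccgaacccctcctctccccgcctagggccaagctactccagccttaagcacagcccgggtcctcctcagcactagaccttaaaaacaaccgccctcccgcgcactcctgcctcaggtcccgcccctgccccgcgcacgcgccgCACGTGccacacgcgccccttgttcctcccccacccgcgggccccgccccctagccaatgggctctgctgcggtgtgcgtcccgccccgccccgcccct
Ankrd37: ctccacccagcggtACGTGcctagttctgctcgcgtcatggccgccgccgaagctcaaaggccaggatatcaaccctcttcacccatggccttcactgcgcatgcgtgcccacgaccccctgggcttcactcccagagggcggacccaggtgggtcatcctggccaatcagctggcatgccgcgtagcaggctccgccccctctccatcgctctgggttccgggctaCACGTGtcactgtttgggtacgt
P4ha2: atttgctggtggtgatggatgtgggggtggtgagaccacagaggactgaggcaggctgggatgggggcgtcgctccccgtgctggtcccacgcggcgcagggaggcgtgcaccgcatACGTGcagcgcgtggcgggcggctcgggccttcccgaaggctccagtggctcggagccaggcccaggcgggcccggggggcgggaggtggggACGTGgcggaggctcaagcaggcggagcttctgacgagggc
The Bnip3, Ldha and Ankrd37 stretches each hold a CACGTG. In Ldha a further core on the opposite strand follows it, at base -73 from the start, and in Slc2a1 the single ACGTG begins at base -51. P4ha2 has 2 separate cores, from bases -133 and -41.

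**Figure D1:**
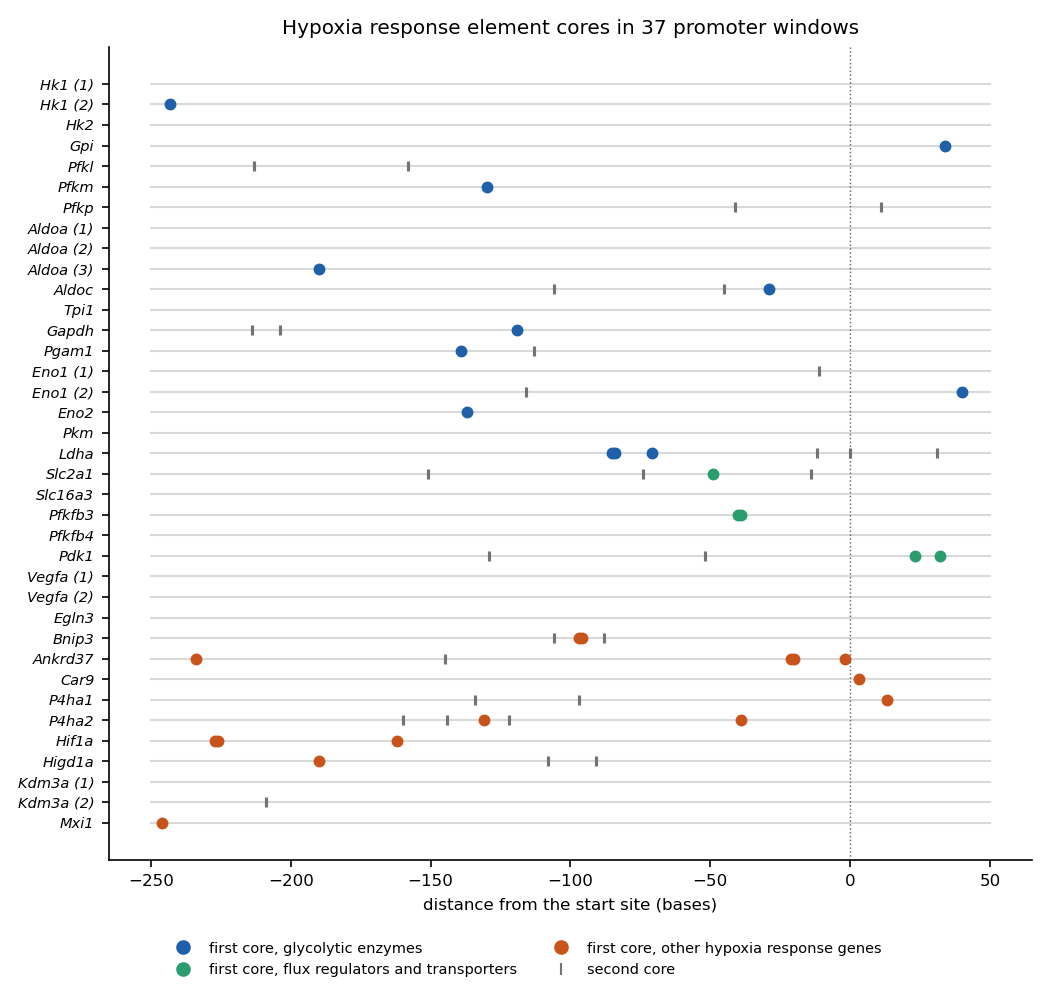
Positions of the first core (ACGTG, coloured circles by group) and the second core (GCGTG, grey ticks) on either strand in the 37 promoter windows, each a grey line from 250 bases before to 50 bases after the start site (x axis, bases; dotted line at the start). Numbers in brackets tell the windows of genes with several starts apart. Circles sit in 21 of the 37 windows and are missing from both Vegfa windows.

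Expression was deposited as 1 comparison per compound, with the mean count over libraries, the log2 fold change and its standard error, and no value per library. The headers do not say whether these are input or IP libraries. The normalized mean counts summed to 3.69e+07 for bufalin and 3.56e+07 for periplocin, and the median standard error was 0.11 (log2) in both tables once genes with a mean under 10 were left out. Of 8 myoblast markers, 7 reached a mean of 10 in control cells: Vim, Ncam1, Cdh15, Des, Myod1, Cdh2 (24.6) and Myog (11.5). Myf5 was at 0. Most of the sum over the myoblast markers came from Vim (68248 in control cells) and Ncam1 (17776). The summed means were 100402 in bufalin-treated and 89957 in control cells (7 of the 7 with a p above 0, median log2 change 0.15). They were 87664 in periplocin-treated and 87158 in control cells (4 of 7 above 0, median 0.02). Among 7 cardiomyocyte markers, 4 reached a control mean of 10: Tnnt2 (4549), Myh6 (313), Tnni3 (65.6) and Pln (23.4). Nppa was at 3.33, and Actn2 and Ryr2 were near 0 (control means 0.172 and 0.178). The summed means of the cardiomyocyte markers, led by Tnnt2, were 4422 in bufalin-treated and 4954 in control cells (4 of 7 above 0, median log2 change 0.45). With periplocin they were 5171 in treated and 4800.0 in control cells (5 of 7 above 0, median 0.50). The cardiomyocyte markers above 0 with bufalin were Tnni3 and Nppa, Actn2 and Ryr2, the last 3 all under a mean of 10. Tnnt2, Myh6 and Pln were below 0 with bufalin. Of the leukocyte and endothelial markers 2 of 5 each, of the epithelial 1 of 4 and of the fibroblast 3 of 6 reached a control mean of 10, the last led by the collagen genes Col1a1 and Col1a2.

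No glycolysis or hypoxia gene passed the threshold for a change with either compound. With bufalin, 0 of the 25 with an adjusted p passed 0.05 in the Wald test of DESeq2, adjusted by Benjamini-Hochberg, against 0.301% of all genes with an adjusted p (4 of these genes had an unadjusted p under 0.05, against 5.00% of all genes). With periplocin it was 0 of 34, against 0.538% of all genes (1 had an unadjusted p under 0.05, against 6.25% of all genes). With adjustment over every gene that had a p, the count stayed 0 in both tables, where 0.0932% and 0.519% of all genes passed. Whether fewer cells or less RNA per cell lies behind any level in these bulk samples cannot be told apart.

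Most of the fold changes were small and above 0. With bufalin 31 of the 34 genes with a p had a log2 change above 0, against 50.4% of all genes with a p, and their median was 0.19 against 0.00 over all genes. Eno1, Pfkfb4 and Bnip3l were the 3 below 0. With periplocin 33 of 35 were above 0, against 50.5% of all genes, with a median of 0.14 against 0.00, and Pfkp and Gapdh were the 2 below. As another summary, a mean weighted by the inverse squared standard error was 0.07 with bufalin and 0.05 with periplocin. Above a mean of 200 counts the median was 0.17 with bufalin and 0.08 with periplocin. No list-level error could be had from the deposited tables, so these summaries carry no test. The myoblast markers had medians of 0.15 with bufalin and 0.02 with periplocin, and their part in the medians of the glycolysis and hypoxia genes was not tested. Both tables use the same control libraries, so the fold changes with bufalin and periplocin are set side by side below and are not repeats of each other.

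The median of the glycolytic enzymes was nearer to 0 than that of the other hypoxia response genes, a difference with no test and no error of its own. With bufalin the medians were 0.12 (log2) for the 16 enzymes, 0.21 for the 5 flux regulators and transporters and 0.25 for the 13 other hypoxia genes with a p. With periplocin they were 0.10, 0.25 and 0.18. The difference of medians, enzymes minus other hypoxia genes, was -0.13 with bufalin and -0.08 with periplocin. Above a mean of 200 counts the difference was -0.10 with bufalin and -0.04 with periplocin. Between means in place of medians it was -0.02 with bufalin and -0.27 with periplocin, where Egln3, at a mean count of 0.629, enters with a log2 change of 2.80 in the authors' deposited table. With bufalin the enzyme Aldoc, at a mean count of 7.54, enters with a log2 change of 1.82 in the authors' deposited table.

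**Figure D2:**
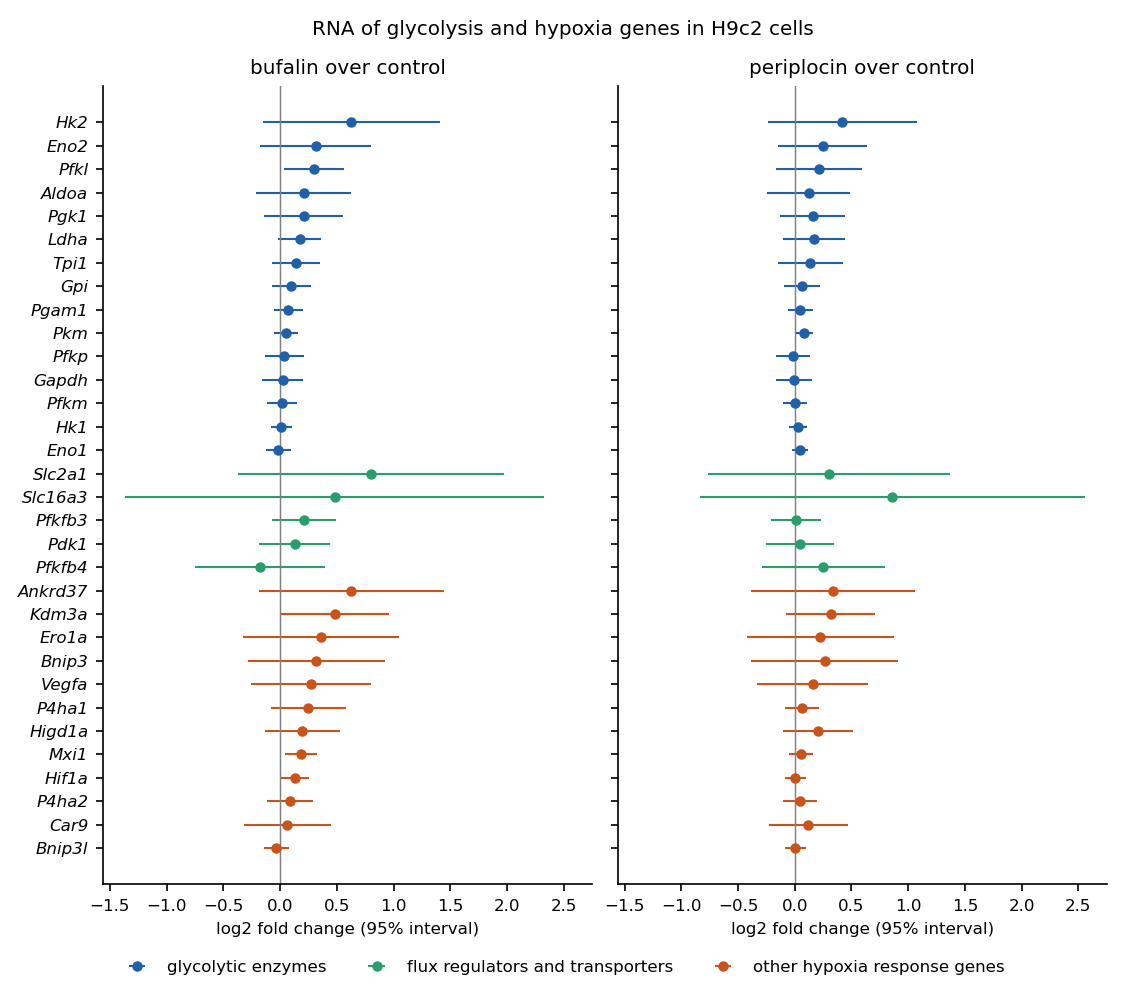
Log2 fold changes over control (x axis) of the 32 genes with a mean count of at least 10, bufalin left and periplocin right. Points are the authors' estimates and bars are 95% intervals from their standard errors, coloured by group; most points lie right of 0, and the bars of Slc2a1, Slc16a3, Hk2 and Ankrd37 are among the widest.

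Among the enzymes that trap and split the sugar, Hk2, a hexokinase that HIF raises in muscle and tumours, had fitted means of 6123 counts in bufalin-treated and 3961 in control cells. Its ratio was 1.55 with an interval of 0.899 to 2.66. With periplocin its means were 5136 in treated and 3837 in control cells, a ratio of 1.34 with an interval of 0.848 to 2.11. Hk1, the isozyme of most tissues, was measured far more tightly, with a ratio of 1.01 (0.948 to 1.07) with bufalin and 1.02 (0.966 to 1.08) with periplocin. Control means differ between the tables by a common offset of -0.05 (log2, periplocin minus bufalin table).

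Pfkl, the liver-type subunit of phosphofructokinase, the committed step of glycolysis, had an unadjusted p under 0.05 with bufalin. Its fitted means were 4709 in bufalin-treated and 3833 in control cells, and 4309 in periplocin-treated and 3713 in control cells. The authors' deposited table gave a log2 change of 0.30 ± 0.14 (SE) with bufalin (adjusted p = 0.503) and 0.21 ± 0.19 with periplocin (adjusted p = 0.991). For bufalin and then periplocin, the muscle subunit Pfkm stood at 0.02 ± 0.07 and 0.00 ± 0.06, and the platelet subunit Pfkp at 0.04 ± 0.09 and -0.01 ± 0.08 in the authors' deposited table. The sugar isomerase Gpi stood at 0.10 ± 0.09 and 0.06 ± 0.08 in the authors' deposited table.

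Aldoa, the muscle aldolase, had fitted means of 39187 in bufalin-treated and 33887 in control cells, and 35719 in periplocin-treated and 32829 in control cells. The authors' deposited table gave it a log2 change of 0.21 ± 0.21 (SE) with bufalin (adjusted p = 0.789) and 0.12 ± 0.19 with periplocin (adjusted p = 0.998). The brain aldolase Aldoc was hardly present, with means of 11.7 in bufalin-treated and 3.33 in control cells, and 5.68 in periplocin-treated and 3.23 in control cells.

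In the later steps, Pkm, the pyruvate kinase, was the 1 gene with an unadjusted p under 0.05 with periplocin. Its means were 49745 in periplocin-treated and 46921 in control cells, and 50298 in bufalin-treated and 48430.4 in control cells. The authors' deposited table gave a log2 change of 0.08 ± 0.04 (SE) with periplocin (adjusted p = 0.679) and 0.05 ± 0.05 with bufalin (adjusted p = 0.767). Eno2, the neuronal enolase, stood at 0.31 ± 0.25 with bufalin and 0.25 ± 0.20 with periplocin, and the widespread Eno1 at -0.02 ± 0.06 and 0.04 ± 0.04, in the authors' deposited table.

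Ldha, the lactate-forming dehydrogenase, had log2 changes of 0.17 ± 0.10 (SE, bufalin) and 0.17 ± 0.14 (SE, periplocin) in the authors' deposited table. Pgk1, which makes the first ATP of the pathway, stood at 0.21 ± 0.18 and 0.16 ± 0.15, and the triose isomerase Tpi1 at 0.14 ± 0.11 and 0.14 ± 0.14, in the authors' deposited table. The mutase Pgam1 stood at 0.07 ± 0.07 and 0.05 ± 0.06, and the dehydrogenase Gapdh at 0.02 ± 0.09 and 0.00 ± 0.08, in the authors' deposited table. Gapdh and Pgam1 have many processed copies in mammalian genomes, and the sources used here do not give how reads matching several copies were counted.

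Slc2a1, which encodes the glucose transporter GLUT1, had the largest ratio among the flux genes with bufalin and also a wide interval. Its fitted means were 3453 in bufalin-treated and 1981 in control cells, a ratio of 1.74 with an interval of 0.775 to 3.92. With periplocin they were 2369 in treated and 1919 in control cells, a ratio of 1.23 with an interval of 0.590 to 2.59. The intervals leave both a lower and a much higher level possible. Slc16a3, the lactate exporter MCT4, was near the limit of detection, with means of 29.4 in bufalin-treated and 21.0 in control cells, and 37.04 in periplocin-treated and 20.4 in control cells.

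Pfkfb3 and Pfkfb4 set the level of the fructose bisphosphate that activates phosphofructokinase. Pfkfb3 had a ratio of 1.16 (0.954 to 1.40) with bufalin and 1.01 (0.867 to 1.18) with periplocin. Pfkfb4 had a ratio of 0.885 (0.596 to 1.31) with bufalin and 1.19 (0.817 to 1.74) with periplocin. For Pdk1, the kinase that keeps pyruvate out of mitochondria, the ratio was 1.09 (0.879 to 1.36) with bufalin and 1.03 (0.839 to 1.27) with periplocin.

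Of the regulators in the hypoxia group, Hif1a itself had an unadjusted p under 0.05 with bufalin. Its means were 6624 in bufalin-treated and 6039 in control cells, and 5869.55 in periplocin-treated and 5850.1 in control cells. The authors' deposited table gave a log2 change of 0.13 ± 0.06 (SE) with bufalin (adjusted p = 0.503) and 0.00 ± 0.05 with periplocin (adjusted p = 0.9999). Mxi1, a Max partner that opposes Myc, had the smallest unadjusted p of all the genes described here with bufalin, 0.00935, which did not hold after adjustment. Its means were 6217 in bufalin-treated and 5465 in control cells, and 5515 in periplocin-treated and 5295 in control cells. The authors' deposited table gave it a log2 change of 0.19 ± 0.07 (SE) with bufalin (adjusted p = 0.357) and 0.06 ± 0.05 with periplocin (adjusted p = 0.991).

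Kdm3a, a histone demethylase under HIF control, was the fourth gene with an unadjusted p under 0.05 with bufalin. Its means were 4547 in bufalin-treated and 3259 in control cells, and 3928 in periplocin-treated and 3157 in control cells. The authors' deposited table gave a log2 change of 0.48 ± 0.24 (SE) with bufalin (adjusted p = 0.512) and 0.32 ± 0.20 with periplocin (adjusted p = 0.897). All 4 genes with an unadjusted p under 0.05 with bufalin, of 34 with a p, were higher than control. Over all 12876 genes with a p, 644 had such a p, and 392 (3.04% of the 12876) were higher. With periplocin Pkm was the 1 of 35 genes at that p, and it was higher. There 806 of all 12906 genes had such a p, and 528 (4.09% of the 12906) were higher.

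Vegfa, the main growth factor of blood vessels, had a ratio of 1.21 (0.840 to 1.75) with bufalin and 1.12 (0.797 to 1.57) with periplocin. Bnip3, a mitophagy receptor, had ratios of 1.249 (0.821 to 1.90) and 1.20 (0.767 to 1.88), while its relative Bnip3l had 0.978 (0.904 to 1.06) and 1.003 (0.941 to 1.07), each with bufalin first. Ero1a, which oxidises proteins in the endoplasmic reticulum, stood at 1.29 (0.798 to 2.07) with bufalin and 1.17 (0.745 to 1.83) with periplocin. Ankrd37, a small ankyrin protein known as a HIF target, had 1.55 (0.877 to 2.73) and 1.26 (0.765 to 2.08).

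The collagen prolyl hydroxylase subunit P4ha1 had means of 31770.5 in bufalin-treated and 26774.5 in control cells, and 27102 in periplocin-treated and 25941 in control cells. The authors' deposited table gave it a log2 change of 0.25 ± 0.17 (SE) with bufalin (adjusted p = 0.685) and 0.06 ± 0.08 with periplocin (adjusted p = 0.991). P4ha2 had ratios of 1.06 (0.923 to 1.22) with bufalin and 1.03 (0.929 to 1.15) with periplocin. The carbonic anhydrase Car9 had 1.05 (0.802 to 1.36) and 1.09 (0.852 to 1.39), and the mitochondrial protein Higd1a 1.14 (0.911 to 1.44) and 1.15 (0.933 to 1.43). Ndrg1, a gene induced by stress and hypoxia, had means of 7.37 in bufalin-treated and 4.58 in control cells, and 11.6 in periplocin-treated and 4.44 in control cells, too few counts for a statement. Egln3, a prolyl hydroxylase of HIF, had a mean of 0 with bufalin and control and of 0.629 with periplocin and control.

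The standard errors of many of these genes were wide for their level. A standard error was ranked among those of genes within 1.5-fold of the same mean count, and it lay above the 95th percentile in 18 of the 32 genes with a mean of at least 10 in the bufalin table, against 4.15% of all genes. In the periplocin table it did so in 19 of 32, against 3.59%. This was looked at after the standard errors had been seen, and it is a description. It held for 9 of 12 other hypoxia response genes in each table, for 7 and 8 of 15 enzymes and for 2 of 5 flux genes.

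The spread between libraries that a standard error implies, after counting noise, was expressed as a coefficient of variation. It was worked back from the authors' fit and not measured on values per library. With the bufalin table's value first and the periplocin table's after it, the coefficient was 50.6% and 46.1% for Slc2a1, for Hk2 33.8% and 28.5%, for Ero1a 29.8% and 28.0%, and for Bnip3 26.1% and 28.0%. Vegfa had 22.9% and 21.1%, Eno2 21.1% and 16.9%, Kdm3a 20.6% and 16.8%, and Aldoa 18.1% and 15.8%. Genes of the same families had lower coefficients: Hk1 3.76% and 3.25%, Eno1 4.78% and 3.09%, Pfkm 5.45% and 4.54%, and Bnip3l 4.69% and 3.81%. Pfkp had 7.28% and 6.27%. Among genes of similar mean, the standard error of Pfkm lay at percentile 52.7 and 59.5, and that of Pfkp at 87.1 and 93.1. The coefficient of Hif1a was 5.21% and 3.77%, and that of Pkm 4.47% and 3.32%.

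Over all genes at or above a mean of 10, the median coefficient was 9.18% (bufalin table) and 8.37% (periplocin table). This median was not matched for mean count. By the standard error ranked among genes of similar mean, Hk2, Pfkl, Eno2 and Bnip3 lay above the 95th percentile in both tables. Hk1, Pfkm, Eno1 and Bnip3l did not. Not every related pair was split in this way. P4ha1 and P4ha2 both lay above that percentile, at 96.1 and 96.1 in the bufalin table and at 96.8 and 95.3 in the periplocin table. Both tables hold the control libraries, and which libraries carry the spread cannot be told from values per comparison.

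**Figure D3:**
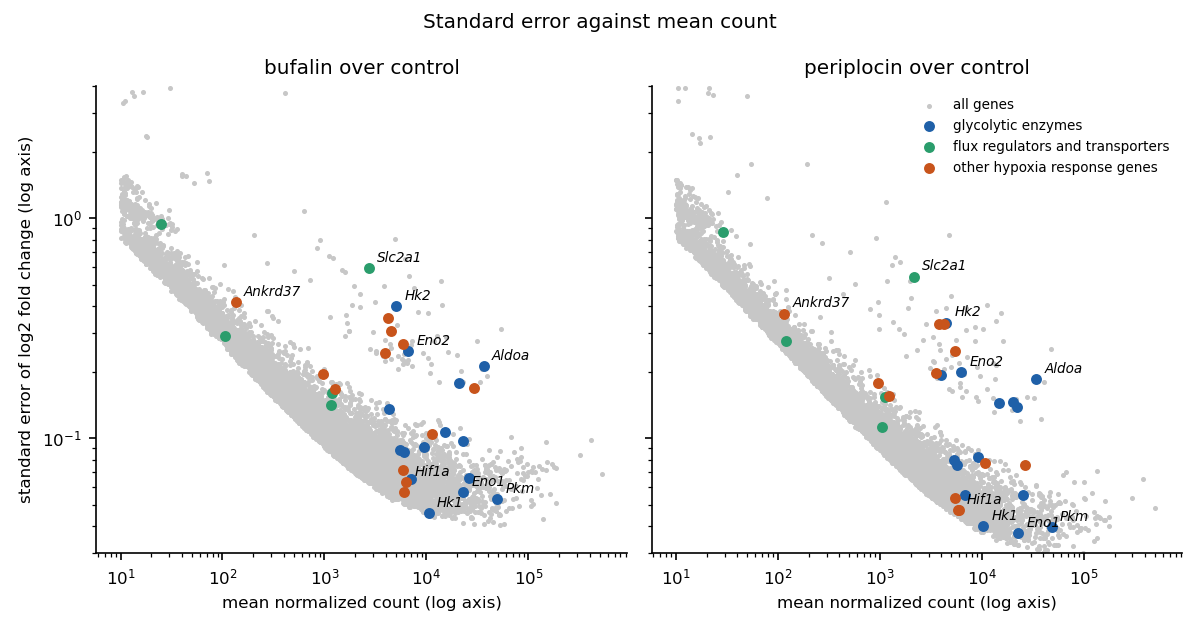
Standard error of the log2 fold change (y axis, log scale) against mean normalized count (x axis, log scale) for genes with a mean of at least 10, bufalin table left and periplocin table right. Grey dots are all genes within the axes and coloured dots the genes described here; Slc2a1, Hk2, Eno2 and Aldoa lie above the grey band while Hk1, Eno1 and Pkm lie in it.

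Neighbouring pathways were described through lists of other genes. Of 25 further HIF targets with a mean of at least 10, 12 had a standard error above the 95th percentile in each table. Of the 14 genes for HIF subunits and their oxygen-dependent control, the 9 of the pentose phosphate path, the 3 of gluconeogenesis and the 20 of the tricarboxylic acid cycle, 0 did in either table. Other glycolytic isozymes also had 0 (of 11 with bufalin and of 10 with periplocin), and pyruvate and lactate handling had 1 and 2 of 18.

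**Figure D4:**
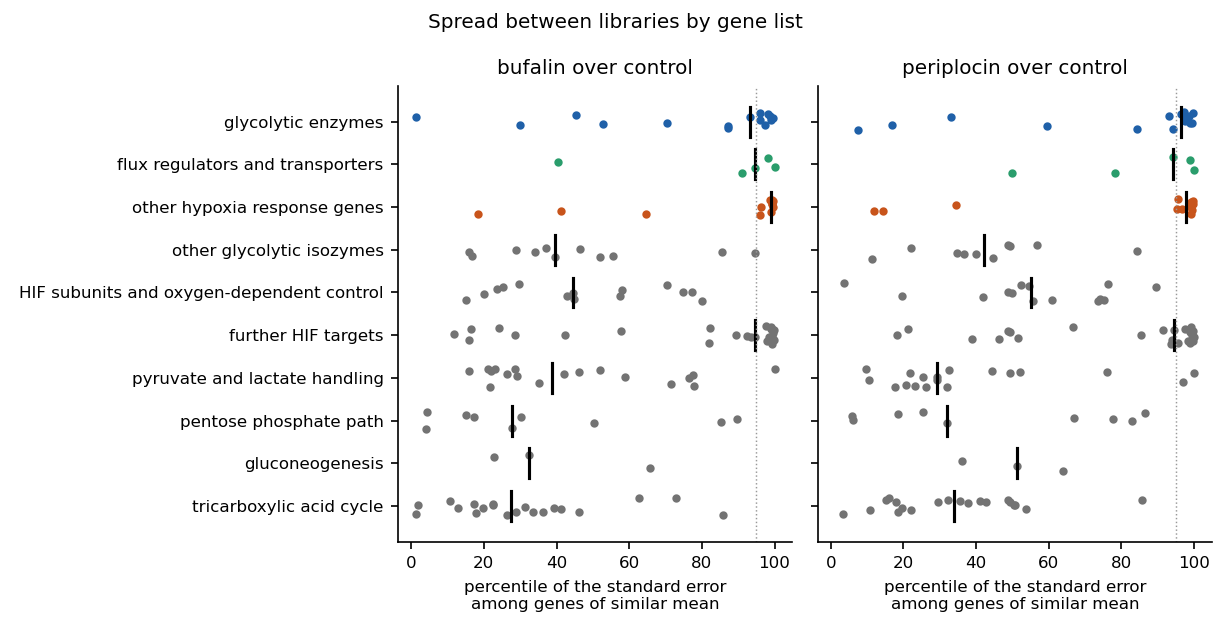
Percentile of each gene's standard error among genes of similar mean count (x axis) by gene list, bufalin table left and periplocin table right, at a mean of 10 or more. Points are genes, black bars medians, and the dotted line marks 95; other hypoxia response genes crowd at the right edge, with 9 of 12 past the line in each table, and no point of the tricarboxylic acid cycle passes it.

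In the fold changes of those lists, with each gene counted once, 0 of the 43 genes with an adjusted p passed the threshold with bufalin, against 0.301% of all genes. With periplocin 1 of 108 did, which is 0.926%, against 0.538% of all genes. Cited2, which competes with HIF1A for a coactivator, rose with periplocin to a mean of 15422, against 12754 in control cells, with a log2 change of 0.27 ± 0.06 (SE) and an adjusted p of 0.00404 in the authors' deposited table. With bufalin its log2 change was -0.01 ± 0.05 in the authors' deposited table. From the same list, Hif1an, the asparagine hydroxylase of HIF, stood at -0.30 ± 0.11 with bufalin and -0.12 ± 0.09 with periplocin, and the ubiquitin-binding protein Ubxn1 at 0.15 ± 0.07 and 0.13 ± 0.05, in the authors' deposited table.

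Of further HIF targets 0 were called, where an adjusted p was given to 12 with bufalin and to 26 with periplocin. Over the 26 with a p the median log2 change was 0.14 with bufalin and 0.07 with periplocin. Hmox1, the heme oxygenase, had means of 9330.4 in bufalin-treated and 4302 in control cells, a ratio of 2.17 with an interval of 1.03 to 4.58. With periplocin they were 5705 in treated and 4168 in control cells, a ratio of 1.37 (0.747 to 2.51). Its unadjusted p with bufalin was 0.0421 and the adjusted p 0.503. Ddit4, an inhibitor of mTOR signalling, had ratios of 1.28 (1.01 to 1.64) with bufalin and 1.16 (0.960 to 1.39) with periplocin, and the disulfide isomerase P4hb 1.11 (1.01 to 1.21) and 0.981 (0.925 to 1.04).

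The medians of the pathways that burn or divert pyruvate lay near 0. The 20 genes of the tricarboxylic acid cycle had a median log2 change of -0.03 with bufalin, with 4 above 0, and of -0.02 with periplocin, with 5 above 0. With bufalin 0 of the 14 given an adjusted p were called, and with periplocin 0 of 20. Mdh1, which was counted in this list, is the cytosolic malate dehydrogenase. It stood at -0.18 ± 0.10 with bufalin and -0.28 ± 0.08 with periplocin, where its adjusted p was 0.109, in the authors' deposited table. The mitochondrial form Mdh2 stood at -0.04 and -0.09 in the authors' deposited table. Sdha, the flavoprotein of succinate dehydrogenase, stood at 0.16 ± 0.06 and 0.06 ± 0.05, and the isocitrate dehydrogenase Idh2 at -0.13 ± 0.06 and -0.09 ± 0.04, in the authors' deposited table.

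The 18 genes of pyruvate and lactate handling had medians of 0.01 with bufalin and -0.03 with periplocin, and 0 were called of the 5 and 18 with an adjusted p. Named by the size of their Wald score, Dlat of the pyruvate dehydrogenase complex had ratios of 0.905 (0.808 to 1.01) with bufalin and 0.891 (0.802 to 0.989) with periplocin, the lactate carrier Slc16a1 1.13 (1.004 to 1.27) and 1.04 (0.964 to 1.12), and the phosphatase Pdp1 0.852 (0.713 to 1.02) and 0.903 (0.769 to 1.06). In the other isozymes, Ldhb, the heart form of lactate dehydrogenase, had 0.890 (0.800 to 0.991) with bufalin and 0.956 (0.902 to 1.01) with periplocin. Bpgm, which makes bisphosphoglycerate, had 1.01 (0.900 to 1.13) and 1.13 (1.03 to 1.253), and Pfkfb1, a relative of Pfkfb3, 0.527 (0.282 to 0.987) and 0.967 (0.545 to 1.72).

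In the pentose phosphate path the medians were -0.01 with bufalin and -0.02 with periplocin, and 0 were called of the 5 and 9 with an adjusted p. Pgls, its lactonase, had ratios of 0.783 (0.659 to 0.932) with bufalin and 0.902 (0.734 to 1.11) with periplocin, the transketolase Tkt 1.07 (1.0003 to 1.15) and 1.04 (0.982 to 1.10), and H6pd, which works in the endoplasmic reticulum, 0.996 (0.871 to 1.14) and 0.897 (0.802 to 1.004). Of gluconeogenesis, Pck2, the mitochondrial carboxykinase, had 0.854 (0.722 to 1.01) with bufalin and 0.851 (0.734 to 0.986) with periplocin. The phosphatase G6pc3 had 0.895 (0.705 to 1.14) and 1.01 (0.779 to 1.30), and the glucose phosphate carrier Slc37a4 1.02 (0.852 to 1.22) and 1.02 (0.848 to 1.22).

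The compounds were set against each other through the control they share, in an approximate Wald test on how far their log2 changes lay apart, over all 10608 genes with a mean of at least 10 in both tables. Of the 32 genes described here, 0 passed an adjusted p of 0.05, against 0.396% of all genes, and 2 had an unadjusted p under 0.05, against 6.33%. The bufalin minus periplocin difference had a median of 0.05 (log2) and was above 0 in 24 of 32, against 50.7% of all genes. For Hif1a it was 0.13 with an interval of 0.02 to 0.24 (adjusted p = 0.590), and for Mxi1 0.13 with an interval of 0.00 to 0.25 (adjusted p = 0.763). For Slc2a1 the interval ran from -0.62 to 1.62 around 0.50, so that neither a difference nor a like response was shown, while for Hk1 it ran from -0.10 to 0.07 around -0.02. Whether the doses or times of the compounds match is not known.

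m6A peaks, stretches of RNA enriched in the pull-down, were deposited as 1 list per compound with positions in rn6, a fold enrichment, read as IP over input, and a log2 change of that enrichment, read as treated over control. All enrichments below are the authors' own values per peak. The bufalin list held 15 peaks on 11 of the genes and the periplocin list 19 peaks on 12. In all 13 genes had a peak: Gpi in the bufalin list alone, Pfkl and Tpi1 in the periplocin list alone, and Pkm, Slc2a1, Pfkfb3, Pdk1, Vegfa, Bnip3, Bnip3l, P4ha1, Hif1a and Mxi1 in both. Of these peaks 14 overlapped by at least 1 base, which was 93.3% of the bufalin list's and 73.7% of the periplocin list's. Of all peaks, 8185 of the 9866 in the bufalin list (83.0%) overlapped one of the periplocin list on the same strand, and 8200 of the 9170 in the periplocin list (89.4%) overlapped one of the bufalin list. No test was made of the difference in these shares.

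The enrichment of these peaks lay near that of their lists. Its median was 1.71 in the bufalin list, against 1.82 for all 9866 peaks, and 1.76 in the periplocin list, against 1.81 for all 9170. The strongest in the bufalin list were a peak over 3 blocks on Hif1a at chr6:96851079-96853258 (plus strand), at 2.48-fold, and one on Vegfa at chr9:17354284-17354583 (plus strand), at 2.33-fold. In the periplocin list the strongest were one of 101 bases on Pfkl at chr20:11415531-11415631 (plus strand), at 2.80-fold, and the same Hif1a peak at 2.61-fold. Their place within the transcripts was not worked out.

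No peak on these genes passed the threshold for a change. In both lists 0 passed an FDR of 0.05 for the change, by the authors' test, against 0.0304% of all peaks with bufalin and 0.0436% with periplocin. An unadjusted p under 0.05 was given to 1 peak with bufalin, against 3.04% of all peaks, and to 0 with periplocin, against 3.37%. That peak lay on Pfkfb3 at chr17:70691594-70692974 (plus strand), with a log2 change of -0.66 and an unadjusted p of 0.0166 in the authors' deposited table. In the periplocin list the overlapping Pfkfb3 peak had a log2 change of -0.30 in the authors' deposited table. On Hif1a a 1-block peak at chr6:96840235-96840334 (plus strand) had log2 changes of -0.45 in the bufalin list and -0.50 in the periplocin list, both from the authors' deposited table, with an FDR of 1 in both.

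The number of genes with a peak was counted by group after the lists had been seen, and it is given without a test. Among genes with a mean count of at least 4000 in the matching expression table, 2 of 15 enzymes (Gpi and Pkm) had a peak in the bufalin list and 3 of 15 (Pfkl, Pkm and Tpi1) in the periplocin list. Of the other hypoxia response genes at that level, 6 of 8 had one in the bufalin list and 6 of 7 in the periplocin list. The share over all genes at that level was 73.4% and 72.3%. With a mean of at least 10 in place of 4000 it was again 2 and 3 of 15 enzymes, and 6 of 12 other hypoxia response genes in each list, against 47.8% and 45.5% of all genes. Transcript length and the number of exons were not matched.

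**Figure D5:**
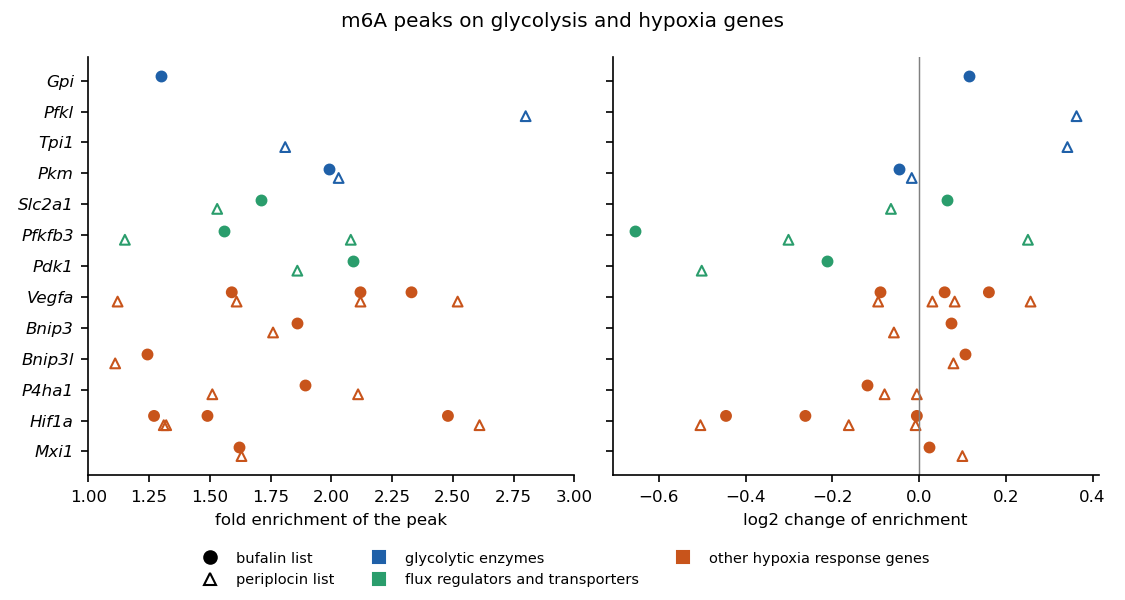
Fold enrichment of each m6A peak (left, x axis from 1) and the log2 change of that enrichment over control (right) on the 13 genes with a peak. Filled circles are peaks of the bufalin list, open triangles those of the periplocin list, coloured by group; enrichments lie between 1.11 and 2.80, and the Pfkfb3 circle at -0.66 is the leftmost change.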

How the data were processed

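MeRIP-seq of 18 H9c2 libraries was used, grouped by compound and by IP or input as labelled. The submitters' processing notes name HISAT2, StringTie, DESeq and the build rn6, without versions; the peak caller is not given in the sources. A strand-specific mRNA kit with molecular identifiers was used, per the labels' protocols.

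The signal column averages, over libraries, counts that were scaled by size factors by the authors, which is what DESeq2 writes under this header. The deposited log2 fold changes and standard errors are the authors', per the file headers. The score column is the authors' Wald statistic in the deposited tables; in the periplocin table its sign was opposite to the fold change in all 12906 genes, so signs came from the fold changes. The deposited p-values equal the Wald p within 2% in all genes, and the adjusted p equals Benjamini-Hochberg over the 3321 genes (bufalin; lowest mean 2259) and 12445 genes (periplocin) that have one. In the peak lists the fold enrichment is the authors' ratio, and the log10 columns are logarithms of p and FDR, per the file headers; the caller's direction of change is not stated. The kind of library (input or IP) behind the expression tables is not stated. Control means worked out from both tables matched within 1% after an offset of -0.05 (log2) in all 10608 genes when both changes were taken as treated over control.

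Fitted group means, intervals (95% Wald) and coefficients of variation were computed from the mean, fold change and standard error, assuming equal spread in both groups of 3 libraries. Depth per library was not analysed here. The bufalin minus periplocin test joins spread and counting noise of the treated groups, with the controls cancelled. It was run on simulated data in which the spread of each gene was taken as known. How it behaves with spread estimated from 3 libraries was therefore not tested. Promoters and names came from RefSeq GRCr8 tables, and rn6 and GRCr8 coordinates were never mixed. Members and lists were chosen with earlier results of these data known. Full values went to genes with an unadjusted p under 0.05 or among the 3 largest mean counts, and to up to 3 genes per other list by absolute Wald score; peaks were the 2 strongest per list. Other genes and the peaks with the lowest p or largest change were named after their values were seen. Alternatives covered thresholds, count filters, weighting, sublists and peak filters. Scripts ran in Python 3.11.15 with scipy 1.17.1, numpy 2.4.6, matplotlib 3.10.9 and pandas 2.3.3.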

Additional observations from a re-analysis of the deposited data

How the results depend on the processing

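No paired analysis was possible because the deposited tables hold 1 value per comparison and none per library, so neither a replicate block nor leaving out a replicate could be run. The count of 0 called genes stayed 0 with an adjusted p under 0.1 and with adjustment over all genes with a p or with a mean of at least 10. At an unadjusted p under 0.05 it was 4 with bufalin and 1 with periplocin. The median log2 change was 0.19 with bufalin and 0.14 with periplocin; as a weighted mean it was 0.074 and 0.048, and above a mean of 200 counts it was 0.17 and 0.084. For enzymes minus other hypoxia genes with periplocin, the difference of means was -0.27, against -0.08 for medians; Egln3, with a mean of 0.629, enters that mean with a log2 change of 2.80. With bufalin the difference of means was -0.024, against -0.13 for medians. There Aldoc, with a mean of 7.54, enters the enzyme mean with a log2 change of 1.82. Above a mean of 200 counts the difference with periplocin was -0.036. No sign changed in these settings, the other settings of both measures stayed within 1.5 times their value, and the cause of the shifts was not tested. The counts of wide standard errors, in settings added after the data were seen, ran from 18 to 21 with bufalin and from 18 to 22 with periplocin. Peak results stayed at 0 with stricter FDR and length filters. Slc16a3, Aldoc, Ndrg1 and Egln3 are limited by low counts.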
